A study of Mus musculus with 6 samples.

Results

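The PIM kinases are represented here by the genes Pim1, Pim2 and Pim3. All probe sets of the array whose annotated gene symbol was 1 of these 3 names were taken, which gave 6 of 22626 probe sets, for 3 of the 12393 genes with a symbol of their own. Pim3 had 3 probe sets, Pim1 had 2 and Pim2 had 1. The family was chosen by the signals of Pim3, whose difference between light pulse and sham light pulse was already known. For this reason the members are described in that comparison and no p-value is given for them. The whole array was tested, and whether a member was called is stated, but nothing is read from it. The comparison asked which transcripts of the suprachiasmatic nucleus (SCN) had changed by the end of a nocturnal light pulse. The animals were male C57BL/6 mice of 2 to 4 months with no genetic alteration stated, kept in a 14:10 light/dark cycle. The 3 light pulse arrays came from mice given 2400 lux for 30 minutes from 1 hour after lights off. The 3 sham light pulse arrays came from mice handled at the same time in darkness. The labels call the start of the pulse Zeitgeber time 13, which, counted from lights on in a 14:10 cycle, would fall before lights off. Each array held SCN tissue lifted by laser from 18 stained sections of 12 μm, pooled from 3 mice, so that a value is the mean of a pool and not of an animal. In such tissue, fewer cells of a type and less RNA per cell cannot be told apart.

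PIM kinases are serine/threonine kinases, the first of which was found in mice as a site where leukemia viruses insert and cause lymphoma. They lack a regulatory domain and are active as soon as they are made, so that their activity is set largely by how much transcript and protein is present. In blood cells their genes are switched on by cytokine receptors through JAK kinases and STAT factors, their proteins are short-lived, and they phosphorylate proteins of cell survival, the cell cycle and cap-dependent translation, many of which AKT kinases also phosphorylate. Pim1 is the founding member, Pim2 is best known from lymphoid cells, and Pim3 from tissues such as pancreas and liver.

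The 3 genes lie on different chromosomes in build GRCm38.p6, Pim1 at chr17:29490785-29496111, Pim2 at chrX:7878306-7883432 and Pim3 at chr15:88862194-88865726. Their promoters are shown because the study looked for cAMP response elements (CREs) and TATA boxes upstream of the light-induced genes. Each is the RefSeq window from 250 bases before to 50 bases after the start of the gene on the + strand, 5′ to 3′, and capitals mark every match to the 7 motifs searched.
Pim3 (chr15:88861944-88862243): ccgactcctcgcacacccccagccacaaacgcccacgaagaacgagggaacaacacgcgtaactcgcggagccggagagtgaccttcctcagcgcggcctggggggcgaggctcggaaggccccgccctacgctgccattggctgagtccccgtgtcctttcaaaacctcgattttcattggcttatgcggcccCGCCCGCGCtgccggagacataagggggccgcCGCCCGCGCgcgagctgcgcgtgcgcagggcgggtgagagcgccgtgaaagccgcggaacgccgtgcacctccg
Pim1 (chr17:29490535-29490834): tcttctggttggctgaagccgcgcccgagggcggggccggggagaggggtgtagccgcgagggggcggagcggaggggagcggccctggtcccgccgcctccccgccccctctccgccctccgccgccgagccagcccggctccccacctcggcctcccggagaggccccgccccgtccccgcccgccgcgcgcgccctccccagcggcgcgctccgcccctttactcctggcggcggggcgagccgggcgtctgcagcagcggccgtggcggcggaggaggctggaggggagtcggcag
Pim2 (chrX:7878056-7878355): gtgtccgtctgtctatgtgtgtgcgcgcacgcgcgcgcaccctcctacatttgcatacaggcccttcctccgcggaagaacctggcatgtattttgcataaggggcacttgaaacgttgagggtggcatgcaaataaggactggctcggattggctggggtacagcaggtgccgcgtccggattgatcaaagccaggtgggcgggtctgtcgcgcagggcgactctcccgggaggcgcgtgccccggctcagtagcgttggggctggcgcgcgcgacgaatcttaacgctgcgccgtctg
Both strands were searched for the CRE (TGACGTCA), its half-site (TGACG, which the full element contains), a TATA box (TATAAA), a STAT site (TTCNNNGAA), an AP-1 site (TGANTCA), an EGR site (GCGNGGGCG) and an E-box (CACGTG). The Pim3 window held 2 EGR site matches, both read on the - strand, at -56 to -48 and at -24 to -16 from the start, and no match to the other 6. An EGR site match was present in 5.55% of 32851 windows of the same length over the genome. A full CRE was present in 1.79% of them, its half-site in 20.8%, TATAAA in 13.6%, the STAT site in 8.3%, the AP-1 site in 7.81% and the E-box in 7.15%. The Pim1 and Pim2 windows printed held none of the 7. A further Pim1 window, at another RefSeq start (chr17:29492835-29493134), held 1 E-box. The Pim1 window was 81.3% G and C, the Pim3 window 69% and the Pim2 window 62.7%, against a median of 52.7% over all windows. The shares above count windows with at least 1 match and were not matched for G and C. How rare the Pim3 matches are among windows like its own was not examined. The study searched farther upstream than these windows reach, counting from the start codon and using matrices in place of exact letters. It reports a conserved CRE for Pim3 and no TATA box. Elements outside the windows are not covered here, and whether the reported CRE falls within the Pim3 window was not examined. These are matches of letters in a short window and say nothing of binding.

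Log2 signals of the arrays correlated at 0.894 to 0.935 within groups and at 0.886 to 0.935 between groups, over the 10266 probe sets kept for testing. A probe set was kept where the third highest of its signals over the 6 arrays was at least 120 arbitrary units. All 8 markers of the SCN examined were at or above 120 on every array, with a summed signal of 71608 to 94252 on the light pulse arrays and 60788 to 72053 on the sham light pulse arrays. Light pulse replicate 3 had a very high signal of the choroid plexus marker Ttr (transthyretin), 110323 against at most 295.6 on the other arrays. Of the 4 choroid plexus markers measured, none was at or above 120 on every array, and Kl and Aqp1 were below it on all. Their summed signal on light pulse replicate 3 was 110583, nearly all of it Ttr. Whether choroid plexus tissue was present thus rests on Ttr alone. Of 6 endothelial markers, the summed signal was 912 to 1294 on the light pulse arrays and 1318 to 1873 on the sham light pulse arrays, which do not overlap. Only Cldn5 among them was at or above 120 on every array, and Kdr and Pecam1 were below it on all. Cldn5 read 876.4, 733.8 and 535.1 on the light pulse arrays and 1174.1, 784.3 and 998 on the sham light pulse arrays, which overlap. Flt1, also kept, read 291.6, 72.6 and 158.9 against 505.4, 325.5 and 511.7, with no overlap. Over all probe sets kept, 4.46% had the light pulse arrays wholly below. The part of these cells in the Pim values was not tested.

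Pim3 transcript was higher after the light pulse. At the probe set with the highest signal, 1437100_x_at, the signals were 9874.2, 13357.3 and 12885.5 on the light pulse arrays, against 3907.4, 4068.4 and 4311.2 on the sham light pulse arrays. The groups were wide apart, the lowest light pulse array lying far above the highest sham light pulse array. Its mean signal was 12040 ± 1890 (SD, n = 3) after the light pulse and 4096 ± 203.3 (SD, n = 3) after the sham light pulse, a ratio of geometric means of 2.92 (95% confidence interval 2.12 to 4.00). On the log2 scale the difference was 1.54 (standard error 0.21). The sham light pulse pools differed little from each other, with a coefficient of variation of 4.96%, and the light pulse pools more, with 15.7%. Without light pulse replicate 3, the array with the high Ttr signal, the log2 difference was 1.49. The probe set was 1 of 7 probe sets called higher by limma at an adjusted p under 0.05, or 0.0682% of those kept, and since that call was known when the family was put forward, nothing is read from it. It was not called without light pulse replicate 3, without light pulse replicate 2 or without sham light pulse replicate 1. Nor was it called without the intensity trend of the variance or with the replicate number as a block. The ending _x_at marks a probe set in which some probes also match other transcripts, so that part of this signal may not be Pim3.

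A second Pim3 probe set, 1451069_at, whose ending marks no such sharing, gave much lower signals and the same direction. It read 201.9, 87 and 142.8 on the light pulse arrays, against 69.8, 40.2 and 47.9 on the sham light pulse arrays. Again every light pulse array was above every sham light pulse array, but the lowest of the first was close to the highest of the second. The log2 difference was 1.41 (standard error 0.72, 95% confidence interval -0.11 to 2.93), from the fit of all probe sets, since the third highest of its signals, 87, left it out of the tested set. Adding 50 to every signal first gave 0.88. The third Pim3 probe set, 1438956_x_at, was near the floor of the array, at 47.1, 14.6 and 122.9 after the light pulse and 2.4, 33.2 and 36.9 after the sham light pulse. The groups overlapped, and its log2 difference of 1.62 had an interval from -1.15 to 4.38. It was 0.33 without sham light pulse replicate 1, the array at 2.4, and 0.87 without light pulse replicate 3. With 50 added to every signal it was 0.51, so no size can be read from this probe set.

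Of the 6 Pim probe sets, 2 had light pulse arrays wholly above sham light pulse arrays, both of Pim3. Over all 22626 probe sets this was so for 6.68%, and for 5.62% of those kept. None had the light pulse arrays wholly below, which was so for 3.64% of all probe sets. The family had 3 probe sets that were kept, 1 for each gene, and of these only that of Pim3 was called. That call was known when the family was put forward.

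**Figure D1:**
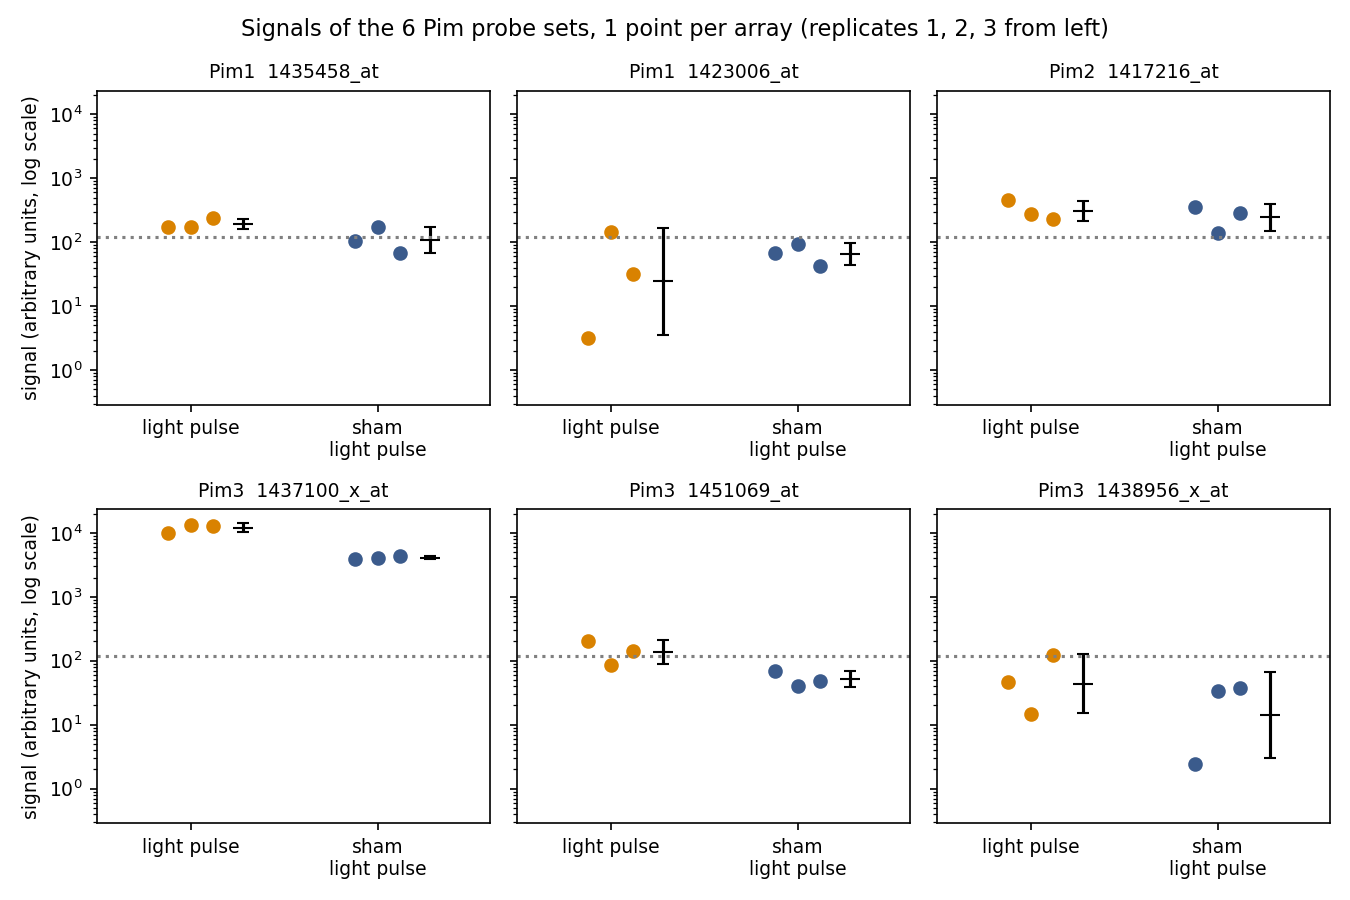
MAS5 signal (arbitrary units, log axis) of the 6 Pim probe sets, with 1 point per array (light pulse left, sham light pulse right). Black marks are group means with SD bars, taken after log2, and a dotted line marks 120. For Pim3 1437100_x_at the light pulse arrays lie between 9874.2 and 13357.3 and the sham light pulse arrays between 3907.4 and 4311.2, while no array of the other 5 probe sets exceeds 453.9.

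Pim1 gave low signals, and in both of its probe sets the groups overlapped. Its better measured probe set, 1435458_at, read 174.2, 173.9 and 238.5 on the light pulse arrays, against 104.7, 175.3 and 67.6 on the sham light pulse arrays. Sham light pulse replicate 2 was as high as the lower pair of light pulse arrays, and the groups overlapped. The mean signal was 195.5 ± 37.2 (SD, n = 3) after the light pulse and 115.9 ± 54.7 (SD, n = 3) after the sham light pulse, with a log2 difference of 0.85 (standard error 0.53, 95% confidence interval -0.30 to 1.99). Leaving out 1 array at a time, it was lowest at 0.51 without sham light pulse replicate 3 and highest at 1.20 without sham light pulse replicate 2. The other Pim1 probe set, 1423006_at, read 3.2, 146 and 31.5 on the light pulse arrays and 66.9, 95.1 and 43 on the sham light pulse arrays. These signals scatter about the floor, light pulse replicate 1 lying far below the rest. Its log2 difference of -1.41, a ratio of 0.377 (95% confidence interval 0.0627 to 2.27), became 0.06 without that array, so the direction rests on it. With 50 added to every signal it was -0.30.

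Pim2 was measured by 1417216_at alone, and had the smallest difference of the 3 kept members. It read 453.9, 277.2 and 228.3 on the light pulse arrays, against 361.2, 140.6 and 284.8 on the sham light pulse arrays. The groups overlapped over most of their range, the highest array being light pulse replicate 1 and the lowest sham light pulse replicate 2. The log2 difference was 0.33 (standard error 0.43, 95% confidence interval -0.60 to 1.26), which as a ratio spans 0.66-fold to 2.39-fold. Without sham light pulse replicate 2 it was -0.07, and without light pulse replicate 1 it was 0.05. Unlike Pim1, Pim2 was at or above 120 on all 6 arrays, and its scatter between pools was wide in both groups all the same.

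**Figure D2:**
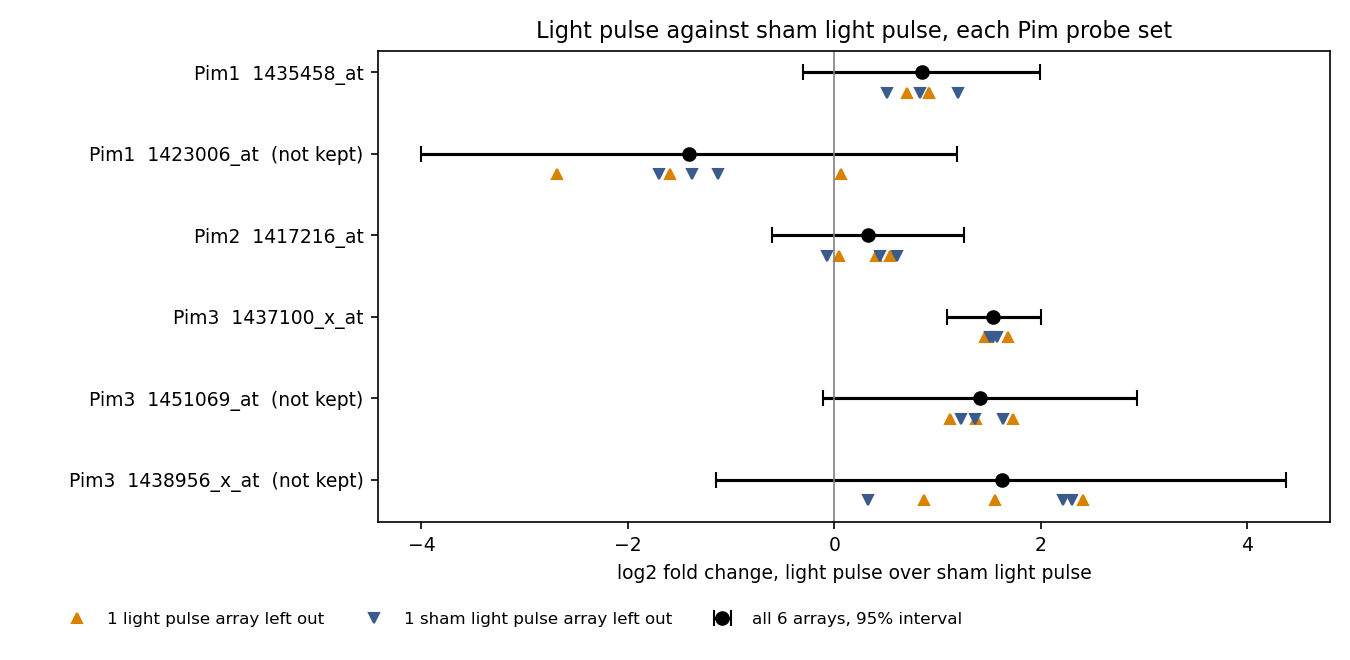
Log2 fold change, light pulse over sham light pulse, of each Pim probe set with all 6 arrays (circles, bars are 95% confidence intervals) and with 1 light pulse or 1 sham light pulse array left out (triangles). The interval of Pim3 1437100_x_at runs from 1.09 to 2.00 and its triangles from 1.46 to 1.68, while the interval of Pim1 1423006_at, the probe set with a negative value, reaches up to 1.19.

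The 3 genes were set against each other array by array, as the difference of their log2 signals between probe sets, which removes what is common to an array. The log2 difference between light pulse and sham light pulse was larger for Pim3 than for Pim2 by 1.21 (standard error 0.60, 95% confidence interval -0.44 to 2.87) and than for Pim1 by 0.70 (standard error 0.45, 95% confidence interval -0.55 to 1.95). For Pim2 against Pim1 the value was -0.52 (standard error 0.86). These arrays therefore do not settle whether Pim1 and Pim2 differed from Pim3, and the values are a description.

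The precision of the 3 kept probe sets was unlike. Within groups the log2 signals of Pim3 had an SD of 0.18, smaller than in 93.8% of the probe sets kept, where the median was 0.43. The SD was 0.52 for Pim1, with larger ones in 35.1% of the probe sets, and 0.62 for Pim2, with larger ones in 24.3%. These shares are over probe sets of every signal level. The SD depends on that level, and Pim3 read far higher than Pim1 and Pim2. No comparison at like signal was made. Since a small spread favours a call, and the call of Pim3 was known when the family was put forward, this SD is a description too. By the size of the difference alone Pim3 did not stand first. Of the probe sets kept, 87 had a larger log2 fold change, 6 of them called and 81 not. Their median SD within groups was 1.50, and only 2 of the 87 had an SD as small as that of Pim3 or smaller, again without matching for signal. The 6 called probe sets above it were those of Dusp1, Nr4a1, Rrad, Egr1, Fos and Egr2. Pim3 was the smallest difference among the 7 called.

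**Figure D3:**
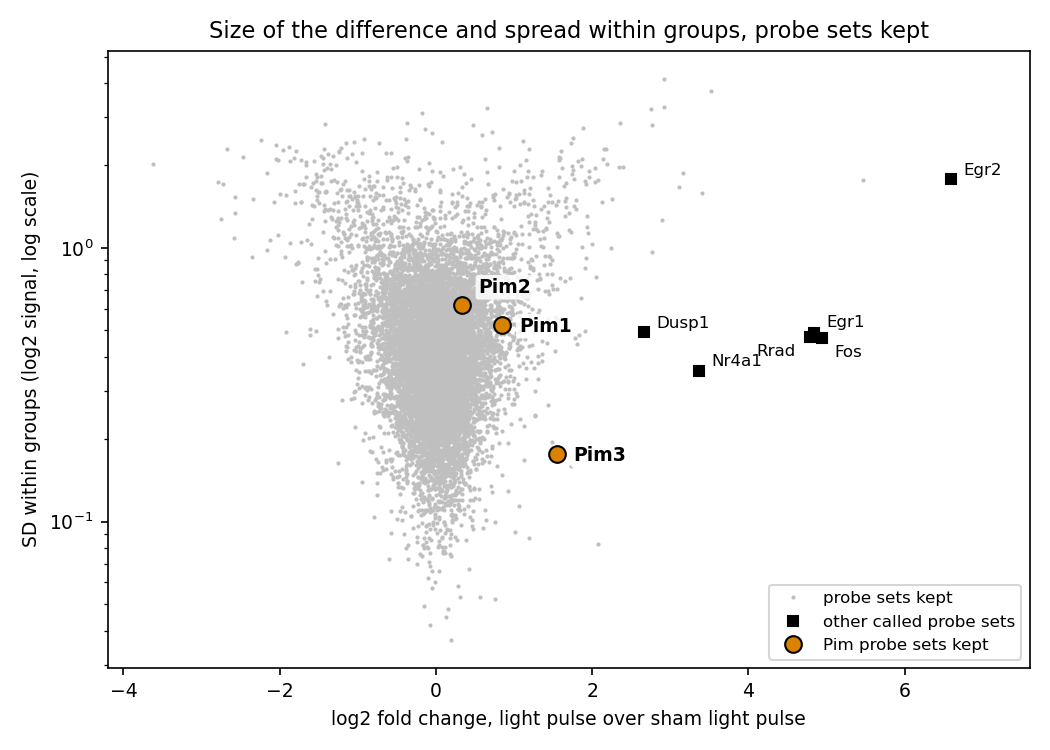
SD within groups of the log2 signal (log scale) against the log2 fold change, light pulse over sham light pulse, for the 10266 probe sets kept (grey), the called ones other than Pim3 (squares) and the 3 kept Pim probe sets (circles). Pim3 lies at 1.54 with an SD of 0.18, below and to the left of the other called probe sets, and Pim1 and Pim2 lie within the main body of points.

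Genes known from other tissues to act on PIM kinases, with them or after them were then examined in 9 lists. Of 76 genes listed 66 were measured and 42 had a probe set that was kept, the one with the highest mean signal standing for the gene. By limma 0 of the 42 were called at an adjusted p under 0.05, 3 had an unadjusted p under 0.05 (Mcl1, higher, and Lifr and Mycn, lower), and Cyber-T gave the same counts. Over all probe sets kept, 0.0682% were called higher, none was called lower, and 4.32% had an unadjusted p under 0.05. With calls so rare, 0 of 42 is no result about these genes. The median log2 fold change of the 42 was 0.09, with 24 above 0, against a median of 0.0017 over all probe sets kept.

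Upstream, the cytokine receptors and JAK kinases had 7 of 13 genes kept and a median log2 fold change of -0.07. Jak2, the kinase bound to many cytokine receptors, read 1530.2, 1318.4 and 2332.7 after the light pulse and 1508.4, 1338.1 and 2447.1 after the sham light pulse, a difference of -0.02 (standard error 0.31) with values that nearly coincide. Ghr, the growth hormone receptor, had -0.34 (standard error 0.42). Lifr, a receptor of leukemia inhibitory factor named here after its value was seen, had -0.99 (standard error 0.36, limma adjusted p = 0.960). Of the STAT factors only Stat5b and Stat3 were kept. Stat5b had 0.05 (standard error 0.44), and Stat3 read 258.8, 316.6 and 308.1 after the light pulse and 212.7, 167.5 and 229.3 after the sham light pulse, with no overlap and a log2 fold change of 0.54 (standard error 0.36, limma adjusted p = 0.960). Among the SOCS proteins, feedback inhibitors that cytokines induce, 5 of 8 were kept with a median of 0.18. Cish had 0.33 (standard error 0.39) and Socs5 0.18 (standard error 0.34). None of these differences passed the test.

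Downstream, the substrates of the cell cycle and survival had 7 of 10 kept and a median of 0.15. Of the FOXO transcription factors, Foxo1 differed by 0.09 on the log2 scale (standard error 0.29) and Foxo3 by 0.17 (standard error 0.32). Bad, the death-promoting protein that PIM kinases inactivate by phosphorylation and named here after its value was seen, read 497.2, 502.7 and 399.4 after the light pulse and 372, 283.8 and 347.3 after the sham light pulse, with no overlap and a log2 fold change of 0.48 (limma adjusted p = 0.960). In the list of transcription and chromatin partners 2 of 8 were kept, Mycn, an oncogenic transcription factor, at -0.96 (standard error 0.41) and Rela, an NF-κB subunit, at 0.63 (standard error 0.44). Myc, the best known partner of PIM kinases in lymphoma, had no probe set that was kept. Of 12 genes of cap-dependent translation 8 were kept, between -0.13 and 0.70, with Eif4e, the cap-binding factor, at -0.13 (standard error 0.25) and Rps6, a ribosomal protein, at -0.02 (standard error 0.26). In the BCL2 family 3 of 7 were kept. Mcl1, a survival factor with a short-lived protein, read 17269.3, 14493.6 and 20029.3 after the light pulse and 13379.7, 10283.4 and 11586.1 after the sham light pulse, with no overlap. Its log2 fold change was 0.55 (standard error 0.20, limma adjusted p = 0.960). The Mcl1 probe set read here ends in _x_at, so that part of its signal may not be Mcl1. Another Mcl1 probe set that was kept, with a lower mean signal, had a log2 fold change of only 0.18. Bcl2l1 (BCL-XL) had 0.27 (standard error 0.33).

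Beside the PIM kinases, the AKT list kept Pdpk1, which activates AKT, at -0.26 (standard error 0.33) and Akt2 at 0.91 (standard error 0.53). The chaperone HSP90 protects PIM proteins and the phosphatase PP2A promotes their loss. Hsp90aa1 differed by 0.21 on the log2 scale (standard error 0.18) and Ppp2r1a, a scaffold subunit of PP2A, 0.30 (standard error 0.18). The other scaffold gene, Ppp2r1b, named here after its value was seen, read 502.7, 681.8 and 342.8 after the light pulse and 683.8, 750.9 and 900.7 after the sham light pulse, with a log2 fold change of -0.66 (limma adjusted p = 0.960). Over the 9 lists the light pulse arrays lay wholly above the sham light pulse arrays for 3 genes, Stat3, Bad and Mcl1, and wholly below for Ppp2r1b. Over all probe sets kept these shares were 5.62% and 4.46%.

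**Figure D4:**
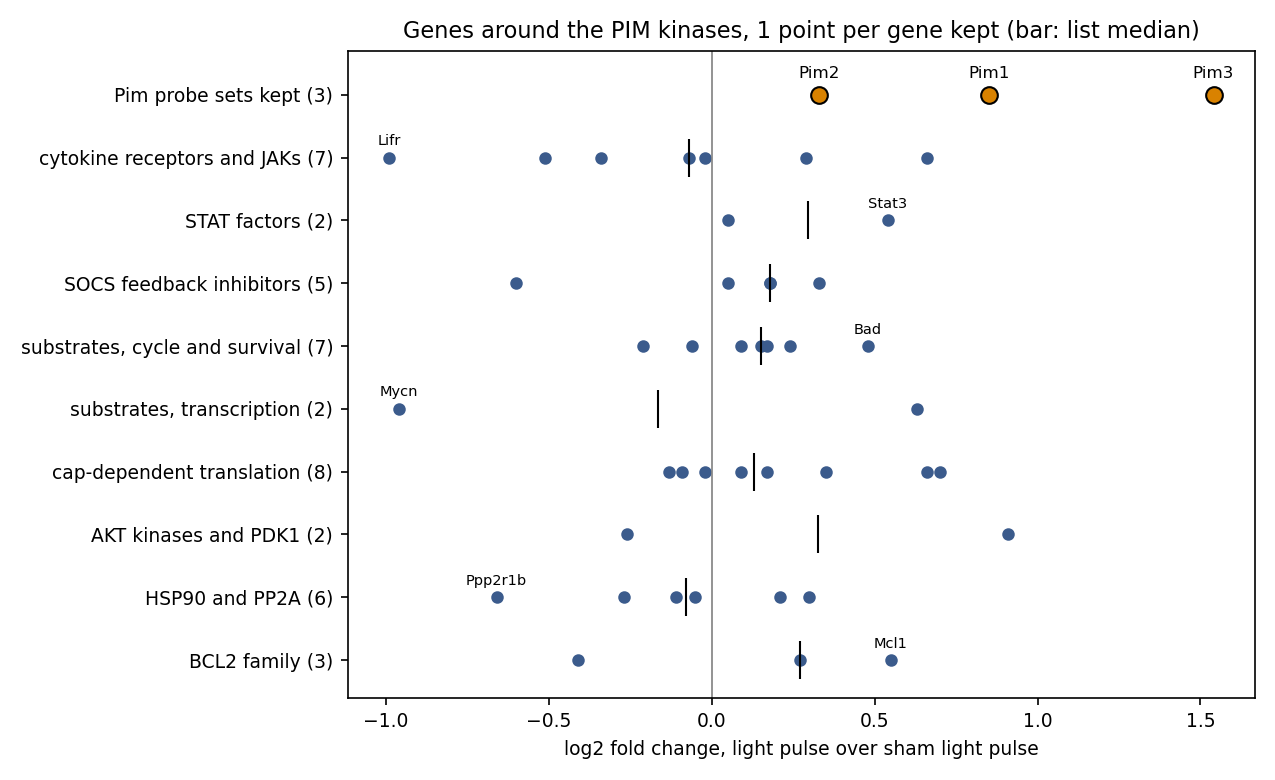
Log2 fold change, light pulse over sham light pulse, of the 3 kept Pim probe sets (top row, orange) and of the kept genes of 9 lists around the PIM kinases (blue, 1 point per gene, numbers of genes in brackets, bars are list medians). All blue points lie between -0.99 and 0.91, to the left of Pim3 at 1.54.

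The genes whose levels followed Pim3 most closely from array to array were sought by the root mean square difference between log2 signals, each centred on its own mean over the 6 arrays. The pattern holds the difference between the groups, so this is a description of likeness and no evidence of shared control. Over 6699 genes the median distance was 0.87. The nearest was Nolc1, a nucleolar phosphoprotein gene, at 0.11, followed by 2810002D19Rik at 0.19, Tiparp, a poly(ADP-ribose) polymerase gene, at 0.24, the sorting nexin gene Snx22 at 0.26 and the dynein light chain gene Dynlt1f at 0.26. Nolc1 read 250.2, 341.1 and 298.2 after the light pulse and 88.6, 90.3 and 88.1 after the sham light pulse. As in Pim3, light pulse replicate 1 was the lowest of its group, and the sham light pulse pools were nearly alike. Its log2 fold change was 1.72 with a standard error of 0.45. Nolc1 and Snx22 were below 120 on all sham light pulse arrays and were kept through the light pulse arrays, where they had to be higher. Dynlt1f was read by a probe set ending in _x_at and belongs to a group of near-identical genes, so its identity is uncertain. Within the family, Pim1 lay at 0.57 from Pim3, with 4.07% of genes closer, and Pim2 at 0.85, with 45.4% closer. Pim1 was at or above 120 on every light pulse array but, among the sham light pulse arrays, only on replicate 2. It too was thus kept largely through the light pulse arrays.

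**Figure D5:**
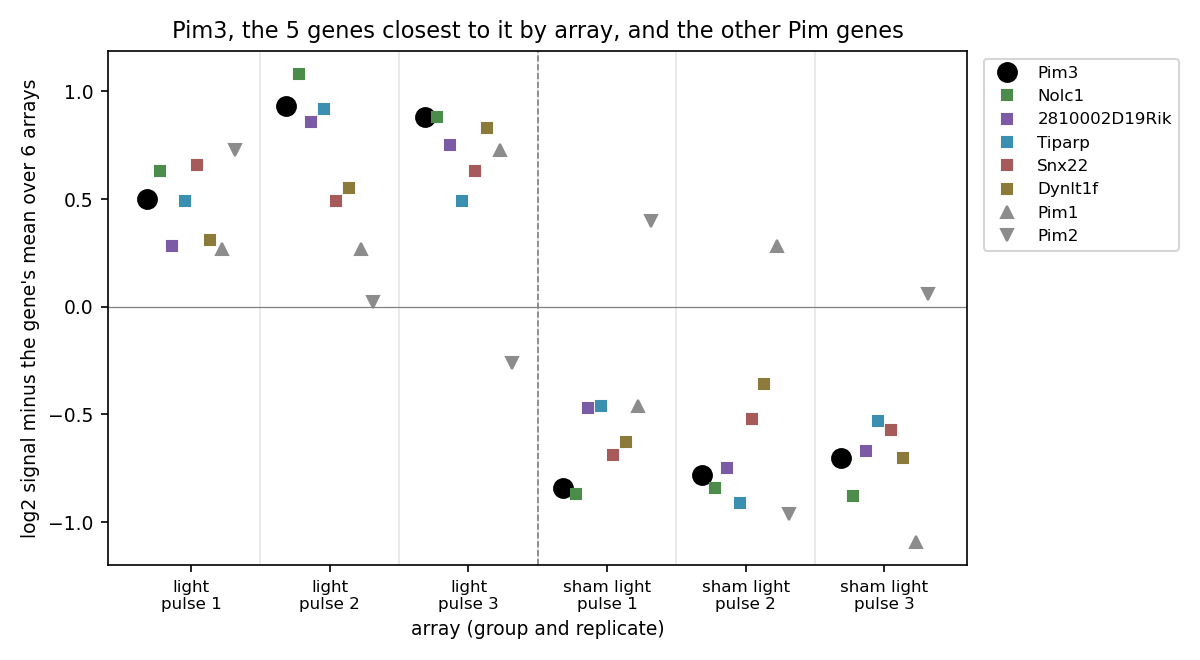
Log2 signal minus the mean over the 6 arrays for Pim3 (black), the 5 genes nearest to it by root mean square difference (squares) and the kept probe sets of Pim1 and Pim2 (grey triangles), by array with the light pulse left of the dashed line and the sham light pulse right of it. The nearest gene, Nolc1, is 0.11 from Pim3 and Pim2 is 0.85 from it, with Pim2 points on both sides of 0 in both groups.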

How the data were processed

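The authors pooled laser-captured SCN tissue of 3 mice per array, copied 1 ng of RNA in 2 rounds of linear amplification, hybridized it to Affymetrix Mouse 430A 2.0 arrays and deposited linear signal intensities, 1 value per probe set and array, made with MAS5 (named in the submitters' processing notes). Present calls, which the paper filtered on, were not used here. Groups and replicate numbers came from the sample titles. Whether pools shared mice is not given in the sources used here. A p-value therefore reflects only how these pools scatter, and the precision is limited by 3 arrays in each group.

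Log2 signals, with no offset, of the 10266 probe sets that reached 120 on at least 3 arrays were compared with limma 3.58.1 in R 4.3.3 (lmFit, eBayes with an intensity trend, Benjamini-Hochberg adjustment over all of them, threshold 0.05, two-sided). For Pim probe sets that this filter removed, values are from a fit to all 22626. Probe sets were named from a platform annotation table where it gave 1 symbol, as for 20380 of them. Cyber-T, the paper's test, was written anew (window 101, prior weight 10) and used as an alternative. Both were run on simulated data with known fold changes, as a check on the mean estimates and not on the calls. The genes named were all Pim probe sets, the called genes of each list or, where there were none, its 2 brightest, and the 5 genes nearest to Pim3, besides those the text says were added. The members and lists were chosen with earlier results of these data known. Promoters are from RefSeq (GRCm38.p6), and all 3 genes matched. Other filters, scalings, an offset, a block and leaving out each array were tried.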

Additional observations from a re-analysis of the deposited data

How the results depend on the processing

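For Pim3 1437100_x_at the log2 fold change ran from 1.46 to 1.68 over 16 alternatives. Its call held under 10 of the 15 that gave a test, and was lost without the intensity trend, with the replicate block and without sham light pulse replicate 1, light pulse replicate 2 or light pulse replicate 3. Nothing is read from that count, since the call was known when the family was put forward. Over all probe sets kept, 7 were called higher. There were 4 without the intensity trend, 6 with the replicate block, and from 4 to 8 with 1 array left out, the 4 without light pulse replicate 2 and without light pulse replicate 3. The 1451069_at probe set of Pim3 gave 0.88 in place of 1.41 when 50 was added to all signals, and was above 0 under all 16. The same offset gave 0.51 in place of 1.62 for Pim3 1438956_x_at and -0.30 in place of -1.41 for Pim1 1423006_at. With 1 array left out, Pim1 1435458_at ran from 0.51 to 1.20, Pim1 1423006_at from -2.69 to 0.06, Pim2 from -0.07 to 0.61, Pim3 1451069_at from 1.12 to 1.73 and Pim3 1438956_x_at from 0.33 to 2.41. No gene of the 9 lists was called under any of the 15, Cyber-T being 1 of them and limma the test in the others. For same-numbered arrays of the 2 groups, the correlations of their deviations from the group means were 0.10, -0.20 and -0.13. Of the 3 light pulse arrays, 1 correlated best with its own number. With so few arrays these values cannot tell whether same-numbered pools were handled together. Signals near the floor of the array limit 1423006_at and 1438956_x_at, for which no size can be read.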
